A study of Homo sapiens with 8 samples.

Results

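The genes described here are NFE2L2, which encodes the transcription factor NRF2, 8 genes known as NRF2 targets (HMOX1, NQO1, GCLM, GCLC, TXNRD1, SRXN1, SLC7A11 and OSGIN1), and SOD2, the mitochondrial superoxide dismutase. They were chosen by gene symbol, and these 10 rows were found among the 27945 genes of the deposited table. Nascent RNA was measured by fastGRO-seq, a run-on assay that lets engaged polymerases lengthen their transcripts with a labeled nucleotide, so that reads report ongoing transcription. The cells were IMR90, human lung fibroblasts grown at 2% oxygen, with an oncogenic RAS fusion (ER:RAS) switched on by 4-hydroxytamoxifen (4-OHT). There were 4 groups of 2 libraries. Control cells received no 4-OHT and are labeled without an shRNA. The other groups were made senescent with 100 nM 4-OHT, harvested on day 6, and carried shControl, shMETTL3 or shMETTL14. METTL3 and METTL14 form the core of a nuclear RNA adenosine methyltransferase. Each knockdown rests on 1 hairpin, and because the labels name no shRNA for control cells, the effects of senescence and of shRNA infection cannot be told apart. The study asked how senescence and each knockdown change transcription, and it describes its fastGRO-seq experiments as 2 that were biologically independent, although the sample labels do not say what was repeated.

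NRF2 is a stress-responsive activator that is kept scarce by KEAP1, an adaptor that hands it to the CUL3 ubiquitin ligase. When oxidants or electrophiles modify KEAP1, NRF2 escapes degradation, pairs with a small MAF protein and binds antioxidant response elements, while the repressor BACH1 competes for the same elements. Its targets make glutathione, recycle thioredoxin and oxidised peroxiredoxin, break down heme and reduce quinones. SOD2 converts superoxide to hydrogen peroxide in mitochondria and is better known as a target of NF-kappaB, a driver of the inflammatory secretion of senescent cells.

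The table held raw counts over whole gene bodies, with totals of 14897360 to 20306299 per library. Ribosomal RNA rows took 86.25% to 92.54% of them, which left 1513930 to 2048475 counts on other genes. The fibroblast label was borne out by 9 of 12 fibroblast markers with a mean of at least 50 counts, with FN1 the highest and summed marker counts of 14029 to 37381 per library. Summed counts of 8 epithelial markers were 1 to 16, of 8 endothelial markers 57 to 133 and of 8 blood cell markers 24 to 65. For METTL3, counts of 77 and 47 in shControl cells stood against 16 and 19 in shMETTL3 cells (log2 fold change -2.04, adjusted p = 1.8e-05, edgeR). For METTL14, counts of 24 and 28 in shControl cells stood against 18 and 14 in shMETTL14 cells (log2 fold change -0.86, adjusted p = 0.076, edgeR), which did not pass the threshold. That knockdown is therefore not shown at the level of nascent RNA. The paper examined both knockdowns by western blot, and neither protein nor mature RNA was measured here. Scaled by total counts, ribosomal rows included, the variance between replicates was 1.83 and 1.92 times the sampling noise in control and shControl cells. It was 9.89 times with shMETTL3 and 4.38 times with shMETTL14. Ribosomal shares of the replicates were 88.38% and 86.25% with shMETTL3 and 90.42% and 91.25% with shMETTL14, against 89.92% and 89.87% in control cells. The variance ratios therefore hold differences in ribosomal share as well as the spread of other genes. The kit was strand-specific and the file header names a strand option, but for 299 genes lying within a gene of the other strand, the surrounding gene never had fewer counts in any library, as when reads of both strands are counted. Overlapping genes were therefore taken to share reads, which touches SOD2 and SLC7A11 below. If strands were in fact separated, the subtractions given there would not apply.

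Promoter sequence was available for 8 of the 10 genes, in 13 RefSeq entries on GRCh38.p14, each running from 250 bases before the start to 50 after it. The searched letters were the antioxidant response element core TGACNNNGC, the AP-1 site TGANTCA, the kappaB-type site GGANNTTCC and the C/EBP-ATF site TGATGNAA, on both strands. Of 35116 promoters in the table, 13.3% held the first, 7.71% the second, 4.56% the third and 3.62% the fourth. GCLM and TXNRD1 held the antioxidant response element core and OSGIN1 held the AP-1 site, while the kappaB-type and C/EBP-ATF letters were in none of the 13 entries. The 4 promoters with a match to any of these letters are shown, 3 with the antioxidant response element core and that of OSGIN1 with the AP-1 letters alone. Capitals mark the matched letters, and positions are counted from the start base, which is 0.
GCLM promoter, chr1:93909381-93909680, minus strand: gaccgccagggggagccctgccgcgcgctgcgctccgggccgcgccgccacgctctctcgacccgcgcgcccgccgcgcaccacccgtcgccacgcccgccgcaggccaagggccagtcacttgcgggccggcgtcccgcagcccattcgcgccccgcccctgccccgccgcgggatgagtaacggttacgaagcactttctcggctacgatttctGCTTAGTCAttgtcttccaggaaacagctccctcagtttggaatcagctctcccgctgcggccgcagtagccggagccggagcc
TXNRD1 promoter 1, chr12:104215529-104215828, plus strand: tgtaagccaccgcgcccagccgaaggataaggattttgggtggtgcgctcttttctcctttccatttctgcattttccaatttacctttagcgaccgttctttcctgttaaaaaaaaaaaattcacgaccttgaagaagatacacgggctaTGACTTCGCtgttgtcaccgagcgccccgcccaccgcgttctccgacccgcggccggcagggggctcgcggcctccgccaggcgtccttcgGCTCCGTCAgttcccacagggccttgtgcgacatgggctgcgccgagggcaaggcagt
TXNRD1 promoter 2, chr12:104286782-104287081, plus strand: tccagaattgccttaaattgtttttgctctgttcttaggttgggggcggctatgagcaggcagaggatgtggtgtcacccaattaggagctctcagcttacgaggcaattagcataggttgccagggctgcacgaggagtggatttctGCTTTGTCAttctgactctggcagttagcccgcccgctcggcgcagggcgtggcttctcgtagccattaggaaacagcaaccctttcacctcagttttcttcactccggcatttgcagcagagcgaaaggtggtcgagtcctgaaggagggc
OSGIN1 promoter, chr16:83952990-83953289, plus strand: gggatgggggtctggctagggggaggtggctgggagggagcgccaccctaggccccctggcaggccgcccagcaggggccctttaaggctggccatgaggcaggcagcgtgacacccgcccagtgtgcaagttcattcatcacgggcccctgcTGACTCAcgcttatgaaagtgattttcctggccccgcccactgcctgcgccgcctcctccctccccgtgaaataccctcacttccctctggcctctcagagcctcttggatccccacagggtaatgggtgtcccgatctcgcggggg

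The GCLM match lay at -34 to -26 and read the element on the reverse strand, as GCTTAGTCA. In TXNRD1 promoter 1 the matches lay at -99 to -91 (TGACTTCGC, forward) and -8 to 0 (GCTCCGTCA, reverse), and in promoter 2 at -102 to -94 (GCTTTGTCA, reverse). In OSGIN1 the match lay at -97 to -91 and read the same on both strands apart from its middle base. None of these matches overlapped another. A match is a description of the letters, and its absence from the NFE2L2, NQO1, GCLC, SOD2 and SRXN1 entries says that the letters are not in these windows. No promoter entry was found for HMOX1 and SLC7A11.

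Divided by gene length, the genes spanned a wide range of levels in control cells, from OSGIN1 to SOD2. Levels are given as normalized counts per kb, that is, raw counts scaled to a common library size by TMM and divided by the counted length. SOD2 was highest in control cells at 14.6 ± 0.757 (SD, n = 2), followed by NFE2L2 at 10.5 ± 0.196 and NQO1 at 8.18 ± 0.622. SRXN1 at 7.55 ± 0.0944 and TXNRD1 at 7.51 ± 0.0615 overlapped each other. SLC7A11 at 4.49 ± 0.899, HMOX1 at 3.57 ± 0.949 and GCLC at 2.84 ± 0.213 followed, and each overlapped its neighbor in this order. GCLM at 1.75 ± 0.352 and OSGIN1 at 0.804 ± 0.00955 were lowest. OSGIN1 stayed lowest in every group. SRXN1 moved from the fourth place in control cells to the first with shMETTL14, at 22.0 ± 0.907 against 13.4 ± 0.131 for SOD2. HMOX1, in the seventh place in control cells, was at 6.22 ± 1.09 with shMETTL14, next after SOD2 and overlapping NFE2L2 at 6.21 ± 1.17.

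**Figure D1:**
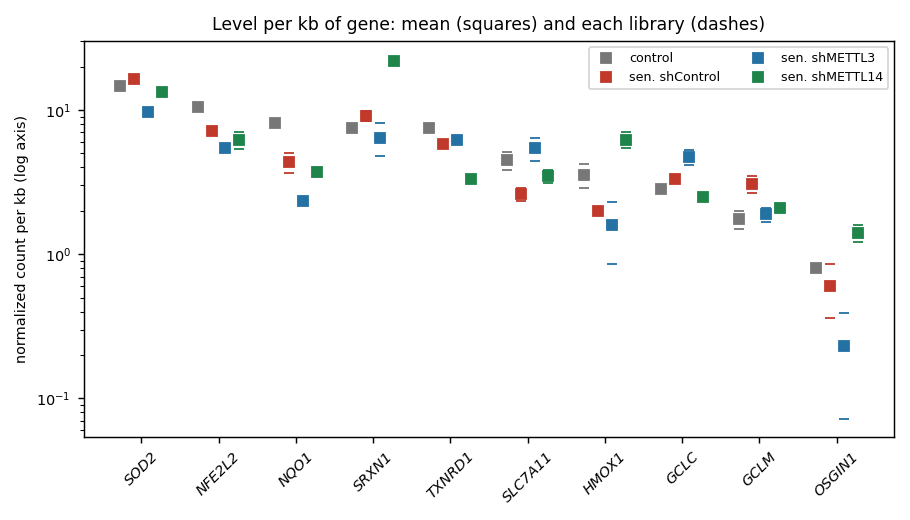
Normalized counts per kb of gene (log axis) for the 10 genes, ordered by their control mean, with a square for each group mean and a dash for each of the 2 libraries. SOD2 leads in every group except senescent shMETTL14 cells, where SRXN1 stands at 22.0, and OSGIN1 is lowest in each.

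Differences between groups were tested with the quasi-likelihood test of edgeR, fitted once to the 8 libraries, adjusted by the Benjamini-Hochberg method over all 12844 genes tested, with a threshold of 0.05. All 10 genes passed the filter on low counts. They did not move as a block. In senescent shControl against control cells, NFE2L2, NQO1, TXNRD1 and SLC7A11 fell and GCLM rose, which is 1 gene higher and 4 lower of 10, where 13.3% of all genes were called higher and 13.3% lower. With shMETTL3 against shControl, GCLC and SLC7A11 rose and NQO1, GCLM and SOD2 fell, 2 higher and 3 lower, where 12.2% of all genes were higher and 11.2% lower. With shMETTL14 against shControl, HMOX1 and SRXN1 rose and TXNRD1 fell, 2 higher and 1 lower, where 9.15% of all genes were higher and 12% lower. The knockdowns were also compared directly, since both are set against the same shControl libraries. In shMETTL14 against shMETTL3 cells, HMOX1, NQO1, SRXN1, OSGIN1 and SOD2 were higher and GCLC, TXNRD1 and SLC7A11 lower, 5 and 3 of 10, where 16.5% of all genes were higher and 18.7% lower. The median log2 fold change of the 10 genes in these 4 comparisons was -0.38, -0.45, -0.22 and 0.33, beside all-gene medians of -0.034, -0.034, -6.4e-05 and 0.012.

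**Figure D2:**
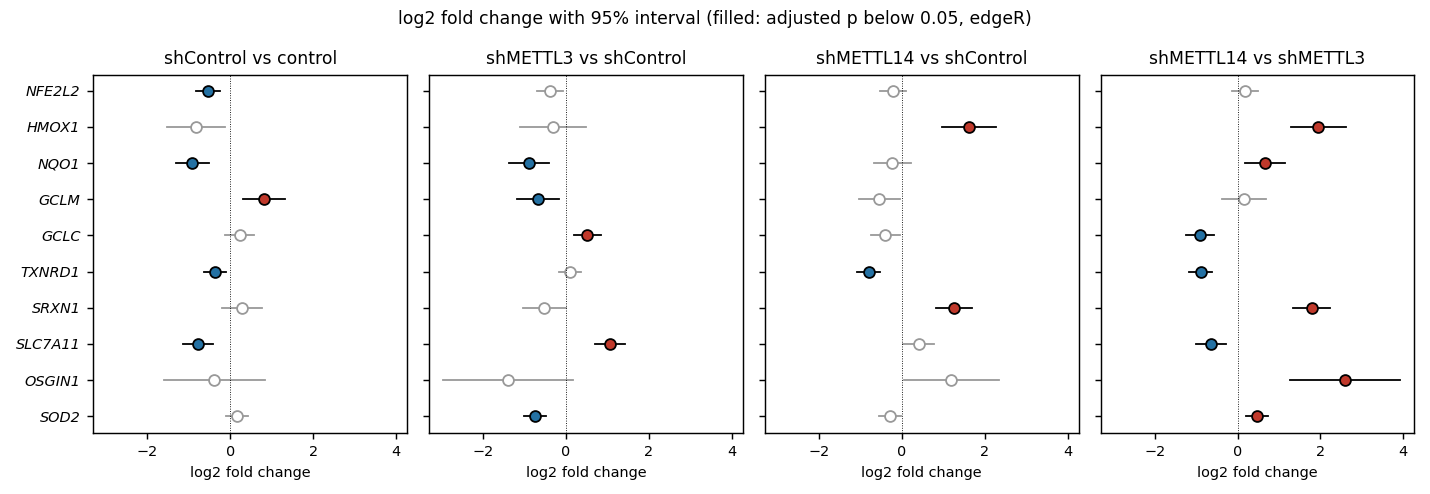
Log2 fold change (x axis) of each gene with its 95% interval in 4 comparisons, filled red for genes called higher and filled blue for genes called lower at an adjusted p below 0.05, and open where not called. HMOX1 and SRXN1 stand to the right in both panels of shMETTL14, and SLC7A11 changes side between the first and second panels.

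The group with the highest level differed between genes. NFE2L2, NQO1 and TXNRD1 were highest in control cells, GCLM and SOD2 in senescent shControl cells, GCLC and SLC7A11 with shMETTL3, and HMOX1, SRXN1 and OSGIN1 with shMETTL14. In 9 of the 10 genes, SLC7A11 being the exception, both libraries of the highest group lay above the other 6, as they did in 53.2% of all genes tested. The lowest level was with shMETTL3 in 6 genes (NFE2L2, HMOX1, NQO1, SRXN1, OSGIN1 and SOD2), and of these NQO1 and SOD2 had both shMETTL3 libraries below the other 6. The share of all genes lowest with shMETTL3 was not computed. HMOX1, NQO1, SRXN1 and OSGIN1 are under 20 kb, a class whose all-gene median with shMETTL3 against shControl was -0.27. Over the 10 genes the lowest group stood apart in 5, beside 45.7% of all genes.

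**Figure D3:**
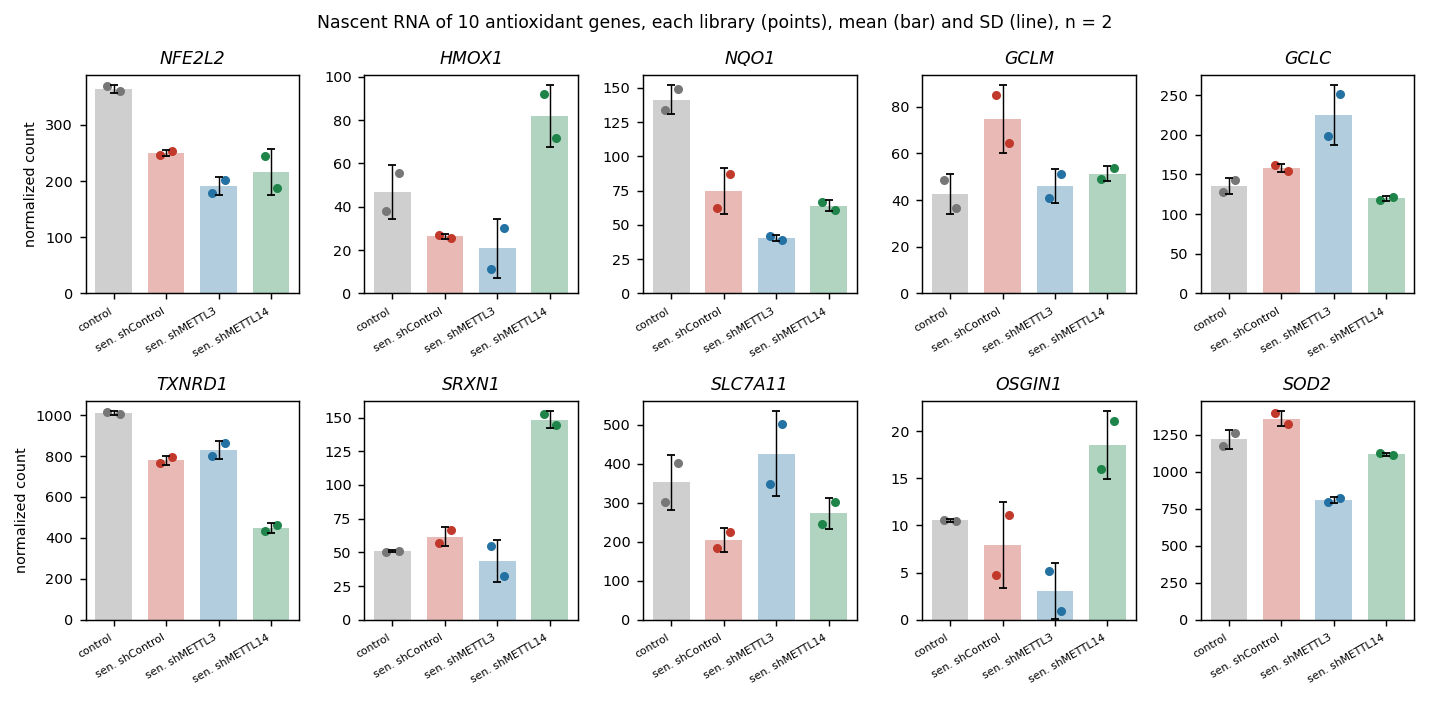
Normalized counts of each gene (y axis, linear, from 0, a scale per panel) in the 4 groups, with a point for each library, a bar for the mean and a line for the SD (n = 2). HMOX1, SRXN1 and OSGIN1 peak with shMETTL14, GCLC with shMETTL3, and NFE2L2, NQO1 and TXNRD1 in control cells.

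NFE2L2 (NM_006164, chr2:178095031-178129859 of hg19, minus strand) had normalized counts of 369 and 359.6 in control cells, 246 and 254 in shControl cells, 179.5 and 202 in shMETTL3 cells and 245 and 187 in shMETTL14 cells. Both control libraries lay above all 6 senescent libraries. In senescent shControl cells its level fell by 0.54 on the log2 scale (SE 0.14, adjusted p = 0.0052). Without control replicate 1, shControl replicate 1 or shControl replicate 2 the adjusted p was 0.053, 0.083 and 0.05, and the call was lost. Against control cells it also fell with shMETTL3 (-0.93, SE 0.14, adjusted p = 8.4e-06) and with shMETTL14 (-0.75, SE 0.14, adjusted p = 0.00013). Neither knockdown was called against shControl, with log2 fold changes of -0.39 (95% interval -0.70 to -0.075) for shMETTL3 and -0.21 (-0.52 to 0.10) for shMETTL14. The former was called without shMETTL3 replicate 2 (-0.50, adjusted p = 0.044), and also with upper quartile scaling (-0.41, adjusted p = 0.049), a filter of at least 10 counts in every library (-0.41, adjusted p = 0.041) or library sizes without ribosomal RNA rows (-0.49, adjusted p = 0.017). Among 3878 genes averaging at least 100 counts, the pattern over the 8 libraries most like that of NFE2L2 was that of HNRNPA3. Its root mean square difference in log2 level was 0.106, against a median of 0.517 over the 3878 genes. MAT2A (0.107) and TRIOBP (0.131) followed.

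Among the genes of glutathione synthesis, SLC7A11 encodes the cystine-importing subunit of the cystine-glutamate exchanger. Its row (NM_014331, chr4:139085248-139163503, minus strand) had 302 and 401 normalized counts in control cells, 183 and 226 in shControl cells, 349 and 502 in shMETTL3 cells and 245 and 301 in shMETTL14 cells. The shControl libraries were the lowest of the 8, and the shMETTL3 libraries overlapped the control range. It fell in senescent shControl cells by 0.78 (SE 0.18, adjusted p = 0.0015), or -0.55 (adjusted p = 0.068) without control replicate 2 and -0.63 (adjusted p = 0.07) without shControl replicate 1. With shMETTL3 it rose by 1.06 over shControl (SE 0.18, 95% interval 0.69 to 1.42, adjusted p = 7.2e-05), a 2.08-fold difference, and this call held under every alternative tried. With shMETTL14 its log2 fold change was 0.41 (95% interval 0.038 to 0.79, adjusted p = 0.11). This difference was called in 8 of 21 alternatives, among them a fit to the compared groups alone (0.40, adjusted p = 0.031).
The level with shMETTL14 was lower than with shMETTL3 by -0.64 (SE 0.17, adjusted p = 0.0044), a call lost without shMETTL3 replicate 2 (-0.34, adjusted p = 0.15) or without shMETTL14 replicate 1 (-0.52, adjusted p = 0.076). SLC7A11 shares 14084 bases, 18.0% of its span, with SLC7A11-AS1 on the opposite strand. The antisense row held 45.8% as many counts as SLC7A11 in control cells, 40.2% in shControl cells, 28.5% in shMETTL3 cells and 30.7% in shMETTL14 cells. With these counts subtracted, the rise with shMETTL3 was 1.31 (adjusted p = 2.1e-05), the fall in senescence -0.64 (adjusted p = 0.021), and the difference with shMETTL14 became 0.63 and was called (adjusted p = 0.032). Most of the antisense gene lies outside SLC7A11, with 15.8% of it shared, so the subtraction takes away more than the shared reads. Its nearest patterns were those of PLK2 (0.131), REV3L (0.166) and FCHO2 (0.168), against a median of 0.525.

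GCLC and GCLM encode the catalytic and modifier subunits of glutamate-cysteine ligase, the rate-limiting enzyme of glutathione synthesis, and their patterns differed. GCLC (NM_001498, chr6:53362140-53409927, minus strand) had 128 and 143 normalized counts in control cells, 162 and 155 in shControl cells, 198 and 252 in shMETTL3 cells and 118 and 122 in shMETTL14 cells. Both shMETTL3 libraries were above, and both shMETTL14 libraries below, all others. For senescence (shControl against control) the log2 fold change was 0.22 (95% interval -0.12 to 0.56, adjusted p = 0.36). It rose by 0.51 with shMETTL3 over shControl (SE 0.16, adjusted p = 0.022), but not with DESeq2 (adjusted p = 0.11), without shControl replicate 1 (0.53, adjusted p = 0.11), without shControl replicate 2 (0.46, adjusted p = 0.18) or without shMETTL3 replicate 2 (0.30, adjusted p = 0.25). The direct difference of shMETTL14 from shMETTL3, -0.91 (SE 0.16, adjusted p = 9.2e-05), kept its call with each library left out. Against shControl, the shMETTL14 value was -0.40 (95% interval -0.75 to -0.047, adjusted p = 0.1), and it was called with the compared groups alone (adjusted p = 0.036) or without shMETTL3 replicate 1 (adjusted p = 0.047) or 2 (adjusted p = 0.046).
GCLM (NM_001308253, chr1:94350756-94375154, minus strand) had 48.7 and 36.6 normalized counts in control cells, 85.1 and 64.6 in shControl cells, 41.0 and 51.3 in shMETTL3 cells and 49.0 and 53.7 in shMETTL14 cells. The shControl libraries stood above the other 6. Among these, the shMETTL3 libraries overlapped both other groups, and the shMETTL14 libraries lay just above those of control cells. GCLM was the 1 gene of the 10 that rose in senescent shControl cells, by 0.81 (SE 0.25, adjusted p = 0.015), and it fell with shMETTL3 by 0.69 (SE 0.25, adjusted p = 0.044). Both calls were lost with DESeq2 (adjusted p = 0.092 and 0.21). The rise was lost without control replicate 2 (0.62, adjusted p = 0.17) or shControl replicate 1 (0.61, adjusted p = 0.23). Leaving out a library ended the fall in 5 cases: shControl replicate 1 (-0.49, adjusted p = 0.34) or 2 (-0.89, adjusted p = 0.056), shMETTL3 replicate 1 (-0.56, adjusted p = 0.11), and shMETTL14 replicate 1 (-0.69, adjusted p = 0.055) or 2 (-0.70, adjusted p = 0.054). With shMETTL14 the log2 fold change was -0.54 (95% interval -1.04 to -0.037, adjusted p = 0.12).

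TXNRD1, the cytosolic thioredoxin reductase, fell in senescence and further with shMETTL14. Its row (NM_001093771, chr12:104609557-104744085, plus strand) had 1017 and 1005 normalized counts in control cells, 765 and 795 in shControl cells, 798 and 862 in shMETTL3 cells and 432 and 465 in shMETTL14 cells. The shMETTL14 libraries lay far below the other 6. It fell in senescent shControl cells by 0.37 (SE 0.13, adjusted p = 0.033), a call lost with DESeq2 (adjusted p = 0.062) and without control replicate 1 (-0.36, adjusted p = 0.18), control replicate 2 (-0.38, adjusted p = 0.16), shControl replicate 1 (-0.34, adjusted p = 0.25) or shControl replicate 2 (-0.39, adjusted p = 0.15). With shMETTL14 it fell by a further 0.80 below shControl (SE 0.13, adjusted p = 7.6e-05), a change of -42.5%, a call lost under none of the alternatives except the added demand of a log2 fold change of at least 1. With shMETTL3 the log2 fold change was 0.090 (95% interval -0.18 to 0.36, adjusted p = 0.67), and the direct difference of shMETTL14 from shMETTL3 was -0.89 (SE 0.13, adjusted p = 8.7e-06). EID3, which lies inside TXNRD1, held 1.7% to 2.4% as many counts by group.
SRXN1 encodes sulfiredoxin, which repairs over-oxidised peroxiredoxin, and is the shortest of the 10 genes (NM_080725, chr20:627268-634014, minus strand). It had 50.5 and 51.4 normalized counts in control cells, 56.7 and 66.8 in shControl cells, 54.4 and 32.3 in shMETTL3 cells and 153 and 144 in shMETTL14 cells. Both shMETTL14 libraries stood well above the other 6. SRXN1 rose 2.40-fold with shMETTL14 over shControl (log2 fold change 1.26, SE 0.21, 95% interval 0.83 to 1.70, adjusted p = 7.6e-05) and was 3.45-fold higher than with shMETTL3 (1.79, SE 0.22, adjusted p = 4.8e-07). Both calls held under every alternative tried. Its log2 fold change in senescent shControl cells was 0.28 (95% interval -0.21 to 0.77, adjusted p = 0.43). With shMETTL3 it was -0.52 (95% interval -1.03 to -0.010, adjusted p = 0.14), which became -0.95 (adjusted p = 0.011) without shMETTL3 replicate 1.

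HMOX1 encodes heme oxygenase 1, which releases iron, biliverdin and carbon monoxide from heme. Its row (NM_002133, chr22:35777060-35790207, plus strand) had 38.1 and 55.7 normalized counts in control cells, 27.2 and 25.6 in shControl cells, 11.3 and 30.4 in shMETTL3 cells and 92.0 and 71.6 in shMETTL14 cells. The shMETTL14 libraries were above all others, and the shMETTL3 libraries spanned the shControl range. HMOX1 rose 3.10-fold with shMETTL14 over shControl (log2 fold change 1.63, SE 0.32, 95% interval 0.98 to 2.28, adjusted p = 0.00044) and was 3.86-fold higher than with shMETTL3 (1.95, SE 0.32, adjusted p = 3.1e-05), with both calls held under every alternative. The latter difference was 1.44 without shMETTL3 replicate 1 and 2.86 without replicate 2. Its log2 fold change in senescent shControl cells was -0.83 (95% interval -1.52 to -0.14, adjusted p = 0.069), and it was called without shMETTL3 replicate 1 (adjusted p = 0.022) or 2 (adjusted p = 0.023). With shMETTL3 it was -0.32 (95% interval -1.12 to 0.48), and 0.19 without shMETTL3 replicate 1, so no direction can be read. Its nearest patterns were less close than those of NFE2L2: SDC4 (0.305), NEAT1 (0.383) and CREB5 (0.430), against a median of 0.947.
NQO1 encodes a quinone reductase that uses NADPH or NADH. Its row (NM_001286137, chr16:69743304-69760571, minus strand) had 134 and 149 normalized counts in control cells, 62.7 and 86.8 in shControl cells, 42.1 and 38.9 in shMETTL3 cells and 67.0 and 61.1 in shMETTL14 cells. All senescent libraries were below both control libraries, and the shMETTL3 libraries were the lowest. NQO1 fell by 0.91 in senescent shControl cells (SE 0.20, adjusted p = 0.00075), or -0.69 (adjusted p = 0.059) without shControl replicate 1. With shMETTL3 it fell by a further 0.89 below shControl (SE 0.23, adjusted p = 0.0065), or -0.64 (adjusted p = 0.17) without shControl replicate 2. Against control cells, the fall with shMETTL3 was -1.80 (SE 0.21, adjusted p = 8.6e-08), a change of -71.3%, and that with shMETTL14 was -1.14 (SE 0.20, adjusted p = 3.5e-05), both under every alternative. The difference between the knockdowns, 0.66 (SE 0.24, adjusted p = 0.03), was lost with DESeq2 (adjusted p = 0.14) and without shMETTL3 replicate 2 (0.62, adjusted p = 0.098), shMETTL14 replicate 1 (0.57, adjusted p = 0.2) or shMETTL14 replicate 2 (0.73, adjusted p = 0.061).
OSGIN1, an oxidative stress-induced growth inhibitor, was the gene with the fewest reads (NM_182981, chr16:83986827-83999937, plus strand). It had raw counts of 12 and 12 in control cells, 4 and 10 in shControl cells, 5 and 1 in shMETTL3 cells and 16 and 20 in shMETTL14 cells. The shMETTL14 libraries were the highest and the shMETTL3 libraries overlapped those with shControl. OSGIN1 was higher with shMETTL14 than with shMETTL3 by 2.59 (SE 0.65, 95% interval 1.25 to 3.92, adjusted p = 0.0028), under every alternative that tested it. The size rests on the few shMETTL3 reads, and was 1.84 without shMETTL3 replicate 2. Without replicate 1, that group is left with 1 count, below the floor of 3 set for giving a fold, so none is given. Against shControl, log2 fold changes of 1.20 with shMETTL14 (adjusted p = 0.13) and -1.39 with shMETTL3 (adjusted p = 0.2) did not pass. The latter is likewise given no value without shMETTL3 replicate 1. At this depth the interval in senescent shControl cells, -1.61 to 0.83, leaves both a fall and a rise possible.

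SOD2 had the most counts per kb in 3 of the 4 groups. Its row (NM_001322817, chr6:160100096-160183561, minus strand) had 1173 and 1263 normalized counts in control cells, 1394 and 1323 in shControl cells, 793 and 820.3 in shMETTL3 cells and 1125 and 1109.9 in shMETTL14 cells. The groups did not overlap, with shControl highest and shMETTL3 lowest. The senescence comparison (shControl against control) gave a log2 fold change of 0.16 (95% interval -0.11 to 0.42, adjusted p = 0.41). With shMETTL3 it fell by 0.75 below shControl (SE 0.13, 95% interval -1.02 to -0.48, adjusted p = 0.00012), a change of -40.6%. With shMETTL14 the log2 fold change was -0.28 (95% interval -0.55 to -0.014, adjusted p = 0.13), and the direct difference between the knockdowns was 0.47 (SE 0.13, adjusted p = 0.0065).
The SOD2 row spans all of WTAP, a gene on the opposite strand that encodes a partner of METTL3 and METTL14 and covers 35.13% of it. WTAP had 207 and 226 raw counts in control cells, 128 and 152 in shControl cells, 183 and 200 in shMETTL3 cells and 242 and 206 in shMETTL14 cells. As a share of the SOD2 counts these are 15.6%, 11.8%, 23.4% and 20.6% by group. With WTAP subtracted, SOD2 was -0.96 with shMETTL3 (adjusted p = 5.7e-06) and -0.43 with shMETTL14 (adjusted p = 0.018), so the second difference was then called, and 0.22 in senescent shControl cells (adjusted p = 0.22). Its nearest patterns were those of ATL3 (0.0701), MYL6 (0.0819) and RPL10A (0.0908), against a median of 0.460.

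**Figure D4:**
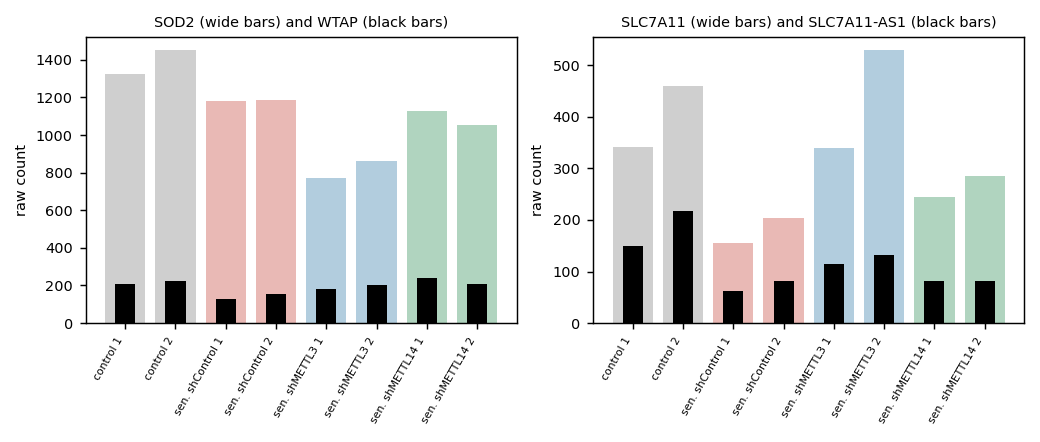
Raw counts (y axis) in the 8 libraries of SOD2 and SLC7A11 (wide bars, colored by group) and of the opposite-strand gene that shares reads with each (black bars). WTAP counts are highest in shMETTL14 replicate 1 (242), where SOD2 has 1126, and SLC7A11-AS1 counts are highest in control replicate 2 (217).

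Against control cells, 1 gene was higher and 5 lower with shMETTL3 (20.1% and 20.1% of all genes), and 2 were higher and 3 lower with shMETTL14 (19.7% and 20.5%). GCLC rose with shMETTL3 by 0.73 (SE 0.16, adjusted p = 0.00051), and SRXN1 rose with shMETTL14 by 1.54 (SE 0.21, adjusted p = 1.1e-06). HMOX1 fell with shMETTL3 (-1.15, adjusted p = 0.008, or -2.05 without shMETTL3 replicate 2) and rose with shMETTL14 (0.80, adjusted p = 0.023). The fall was lost without control replicate 2 (-0.85, adjusted p = 0.12) or shMETTL3 replicate 1 (-0.63, adjusted p = 0.11), and the rise with DESeq2 (adjusted p = 0.12) and without control replicate 1 (0.56, adjusted p = 0.23) or shMETTL14 replicate 1 (0.62, adjusted p = 0.22). TXNRD1 fell by 1.17 with shMETTL14 (SE 0.13, adjusted p = 5.9e-08) and SOD2 by 0.59 with shMETTL3 (SE 0.13, adjusted p = 0.00062). The fall of OSGIN1 with shMETTL3 (-1.79, adjusted p = 0.043) was lost with DESeq2 (adjusted p = 0.13) and with any library but shMETTL3 replicate 1 left out. It was -1.03 without shMETTL3 replicate 2. No fold is given without shMETTL3 replicate 1, where 1 count is left in the group. The SLC7A11 level with shMETTL3 was 0.28 above control (95% interval -0.064 to 0.62, adjusted p = 0.19), but 0.51 (adjusted p = 0.008) without shMETTL3 replicate 1 and -0.019 without replicate 2. With the SLC7A11-AS1 counts subtracted it was 0.67 (adjusted p = 0.0046), and the value with shMETTL14 against control went from -0.37 (adjusted p = 0.091) to -0.013 (adjusted p = 0.97). Without subtraction, the shMETTL14 value was called with the compared groups alone (-0.37, adjusted p = 0.043). It ranged from -0.56 to -0.14 with a library left out.

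The calls rest on TMM scaling, which assumes that most genes do not change, and the spike-in of the study was not used here, so a shift common to every gene would go unnoticed. With total counts alone as the scale, the all-gene median moved to -0.53 for senescence, 0.58 for shMETTL3, 0.35 for shMETTL14 and -0.25 between the knockdowns. On that scale the calls of GCLM in senescence (0.31, adjusted p = 0.35) and of NQO1 (-0.28, adjusted p = 0.42), GCLM (-0.067, adjusted p = 0.86) and SOD2 (-0.13, adjusted p = 0.52) with shMETTL3 were lost, as were those of NQO1 (0.40, adjusted p = 0.25) and SOD2 (0.21, adjusted p = 0.33) between the knockdowns. Calls gained on that scale were HMOX1 in senescence (-1.32, adjusted p = 0.00056), TXNRD1 with shMETTL3 (0.71, adjusted p = 0.00025), and SLC7A11 (0.76, adjusted p = 0.0022) and OSGIN1 (1.53, adjusted p = 0.03) with shMETTL14. Against control, SLC7A11 with shMETTL14 was gained (-0.52, adjusted p = 0.024) and OSGIN1 with shMETTL3 lost (-1.68, adjusted p = 0.052). Fibroblast markers also moved with the groups. Of 11 tested, 1 rose and 7 fell in senescent shControl cells (median -1.09, all genes 13.3% each way). With shMETTL3, 1 rose and 2 fell (median -0.089, all genes 12.2% and 11.2%). With shMETTL14, 0 rose and 8 fell (median -1.07, all genes 9.15% and 12%). The part of these markers in the results was not tested, and in bulk samples fewer cells of a type and less RNA per cell cannot be told apart.

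Gene length moved with these comparisons. Over all genes, the median log2 fold change with shMETTL3 was -0.27 for 4492 genes under 20 kb and 0.258 for 3295 genes over 80 kb, and in shMETTL14 against shMETTL3 it was 0.357 and -0.339. HMOX1, SRXN1, OSGIN1 and NQO1 are under 20 kb (6.746 to 17.27 kb) with 47.05% to 55.7% GC, while GCLC, SLC7A11, SOD2 and TXNRD1 are 47.79 to 134.5 kb long with 35.51% to 42.37% GC. With offsets for both properties, HMOX1 and SRXN1 kept their rise with shMETTL14 over shControl (1.49, adjusted p = 0.00067, and 1.07, adjusted p = 5.8e-05), and so did SLC7A11 with shMETTL3 (0.80, adjusted p = 4.2e-05). SLC7A11 with shMETTL14 over shControl, at 0.41 without the offsets, was then called (0.62, adjusted p = 0.0014). SOD2 fell further with shMETTL3 (-0.92, adjusted p = 4.2e-07). Between the knockdowns, the differences of NQO1 (0.36, adjusted p = 0.24) and SLC7A11 (-0.19, adjusted p = 0.29) were no longer called, that of TXNRD1 shrank to -0.51 (adjusted p = 0.0011), and that of SOD2 grew to 0.72 (adjusted p = 1.1e-05). The fall of HMOX1 with shMETTL3 against control was then -0.76 (adjusted p = 0.078). The counts and medians of the gene lists below are from the fit without these offsets, so they are not adjusted for length or GC content.

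The proteins that control NRF2 were tested as a list of 14 genes, all of which passed the filter. In senescent shControl cells 1 rose and 1 fell, with a list median of 0.13, where 13.3% of all genes were called in each direction. MAFF, a small MAF partner, rose by 1.70 (SE 0.22, adjusted p = 8e-07), and BACH2, a repressor of the BACH family, fell by 2.31 (SE 0.31, adjusted p = 1.6e-06). KEAP1 had 55 and 40 counts in control cells, 42 and 49 in shControl cells, 32 and 23 in shMETTL3 cells and 60 and 61 in shMETTL14 cells. It fell by 0.94 with shMETTL3 (SE 0.29, adjusted p = 0.02), where 3 genes of the list rose and 2 fell (median -0.057) beside 12.2% and 11.2% of all genes, and its value with shMETTL14 was 0.25 (adjusted p = 0.54). BACH2 rose by 2.19 with shMETTL3 (SE 0.32, adjusted p = 1.2e-05) and BTRC, a ubiquitin ligase subunit, by 0.64 (adjusted p = 0.00083). BACH1 was not called in the senescence comparison (0.22, adjusted p = 0.29), with shMETTL3 (0.17, adjusted p = 0.42) or with shMETTL14 (-0.27, adjusted p = 0.2). With shMETTL14, 3 genes rose and 0 fell by edgeR (1 at an unadjusted p below 0.05, 0 by DESeq2, median 0.16, all genes 9.15% and 12%), among them MAFG by 0.78 (SE 0.22, adjusted p = 0.012) and SQSTM1, the autophagy receptor that binds KEAP1, by 0.48 (SE 0.14, adjusted p = 0.013).

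Of 38 other genes known as NRF2 targets, 29 were tested. In senescent shControl cells 3 rose and 9 fell (13.3% of all genes each way), with a list median of -0.55 beside an all-gene median of -0.034. ABCC1, an exporter of glutathione conjugates, fell by 0.94 (SE 0.14, adjusted p = 7.3e-06). AKR1B1, an aldose reductase, rose by 1.52 (SE 0.14, adjusted p = 4.5e-09), and PRDX1, a peroxiredoxin, by 0.52 (adjusted p = 0.039). With shMETTL3, 0 rose by edgeR, at an unadjusted p below 0.05 or by DESeq2, and 10 fell (median -0.49, or -0.46 with genes at the count floor set to their bound), where 12.2% of all genes rose and 11.2% fell, among them PRDX1 by 1.42 (SE 0.20, adjusted p = 7.5e-06). With shMETTL14, 1 rose and 5 fell (median -0.14), beside 9.15% and 12% of all genes. The gene that rose was FTL, the ferritin light chain, by 1.28 (SE 0.17, adjusted p = 2.5e-06), while FTH1, the ferritin heavy chain, fell by 0.61 (SE 0.14, adjusted p = 0.0023) and ABCC4, an exporter, by 1.30 (SE 0.16, adjusted p = 9.5e-07).

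Enzymes that act on superoxide, peroxide and thiols, other than the 10 genes, were a list of 28, of which 25 were tested. In senescent shControl cells 7 rose and 3 fell, with TXNIP, an inhibitor of thioredoxin, up by 1.51 (SE 0.19, adjusted p = 3.9e-07) and PRDX6 down by 0.87 on the log2 scale (SE 0.15, adjusted p = 7.4e-05). GPX1, a glutathione peroxidase, rose by 0.75 (adjusted p = 0.0067) and GPX4, which reduces lipid peroxides, fell by 0.80 (adjusted p = 0.0045). The list median was 0.27, and 13.3% of all genes were called each way. With shMETTL3, 2 rose and 4 fell (median -0.24, all genes 12.2% and 11.2%), and SOD1, the cytosolic superoxide dismutase, fell by 1.00 (SE 0.23, adjusted p = 0.0024). PRDX5 fell by 0.71 (adjusted p = 0.0074) and GLRX3 rose by 0.47 (adjusted p = 0.023). With shMETTL14, 1 rose and 5 fell (median -0.16, all genes 9.15% and 12%), TXNIP rising by 1.15 (SE 0.16, adjusted p = 4.6e-06) and PRDX5 falling by 0.97 (SE 0.20, adjusted p = 0.00067), and MSRB3, a methionine sulfoxide reductase, by 0.74 (adjusted p = 0.00024). CAT, catalase, was not called in any of the 3 (-0.43, -0.30 and 0.24, with adjusted p of 0.23, 0.49 and 0.59). Of 14 genes of NADPH oxidases and other oxidant sources, 4 were tested. NOX4, the oxidase that makes hydrogen peroxide in fibroblasts, had 25 and 12 counts in control cells, 29 and 21 in shControl cells, 100 and 138 in shMETTL3 cells and 17 and 24 in shMETTL14 cells. It rose by 2.02 with shMETTL3 (SE 0.29, adjusted p = 8e-06), and its value was 0.82 in senescent shControl cells (adjusted p = 0.11) and -0.45 with shMETTL14 (adjusted p = 0.43). CYBA, its membrane partner, rose by 1.84 in senescent shControl cells (SE 0.22, adjusted p = 2.2e-07) and fell by 0.65 with shMETTL14 (SE 0.20, adjusted p = 0.02). Over the 4 tested genes, 2 rose and 0 fell in senescence, 1 rose and 0 fell with shMETTL3, and 0 rose and 1 fell with shMETTL14 by edgeR (medians 1.33, 0.61 and 0.13). DESeq2 gave 0 in the same 3 places, as did an unadjusted p below 0.05 apart from 1 gene lower with shMETTL3.

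Because SLC7A11 and SOD2 are also known as targets of ATF4 and NF-kappaB, genes of these programs were counted, against the same all-gene shares of 13.3% each way in senescence, 12.2% higher and 11.2% lower with shMETTL3, and 9.15% and 12% with shMETTL14. ATF4 directs amino acid transport and synthesis under stress. Of its 16 genes, 7 rose and 1 fell in senescent shControl cells (median 0.64), 1 rose and 3 fell with shMETTL3 (median -0.23), and 9 rose and 1 fell with shMETTL14 (median 0.85). SLC3A2, the heavy chain that pairs with SLC7A11, had 105 and 122 counts in control cells, 92 and 97 in shControl cells, 106 and 123 in shMETTL3 cells and 245 and 239 in shMETTL14 cells. It rose by 1.20 with shMETTL14 (SE 0.16, adjusted p = 3.8e-06), where SLC7A11 was at 0.41, and its value with shMETTL3 was 0.059 (adjusted p = 0.85), where SLC7A11 rose by 1.06. SLC7A5, which also pairs with SLC3A2, rose by 2.34 with shMETTL14 (SE 0.19, adjusted p = 1.1e-09), and SESN2 by 1.82 (adjusted p = 2e-07). ATF3 (1.58, adjusted p = 0.00072) and ASNS (1.07, adjusted p = 0.0041) rose in senescence. With shMETTL3, SESN2 rose (0.71, adjusted p = 0.02) and DDIT4 fell (-0.89, adjusted p = 0.023). ATF4 itself was not called with shMETTL14 (0.49, adjusted p = 0.1) or in senescent shControl cells (-0.14, adjusted p = 0.69). Of 20 NF-kappaB target genes, 17 rose and 0 fell in senescent shControl cells by edgeR (0 also at an unadjusted p below 0.05 and by DESeq2, median 1.81), where SOD2 stood at 0.16. The largest were IL1B, with 2 and 3 counts in control cells and 2161 and 2189 in shControl cells, and CCL20, with 0 and 1 against 104 and 99, and no fold is given because the control counts are at the floor of 3. With shMETTL3, 1 rose and 10 fell (median -0.66), and with shMETTL14, 10 rose and 5 fell (median 0.81), TRAF1 (2.76, adjusted p = 4.3e-09) and TNFAIP3 (2.56, adjusted p = 2.1e-11) rising and PTGS2 (-3.07, adjusted p = 3.3e-14) and CXCL1 (-2.94, adjusted p = 5.9e-13) falling. The falls with shMETTL3 were led by IL1B (-3.41, adjusted p = 1.9e-14) and CXCL1 (-3.14, adjusted p = 2e-13), and the gene that rose was NFKB1 (0.90, adjusted p = 4.1e-05). NFKBIA, the inhibitor that NF-kappaB itself induces, rose in senescent shControl cells by 1.12 (SE 0.30, adjusted p = 0.0053) and with shMETTL14 by 1.75 (SE 0.24, adjusted p = 3.2e-06).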

How the data were processed

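The 8 fastGRO-seq libraries of nascent RNA came from IMR90 ER:RAS cells, 2 per group. The authors deposited raw counts per gene over the whole gene body, made with HOMER on hg19, with reads aligned by STAR, and the submitters' processing notes also name deepTools 3.3. All count columns were mapped to samples. Of 27945 rows, 6423 held no count, and 21 ribosomal RNA rows were kept in the library sizes. From these counts, edgeR 4.0.16 in R 4.3.3 (TMM, filterByExpr with a minimum count of 10) was fitted once to the 8 libraries, with a quasi-likelihood test for each comparison and Benjamini-Hochberg adjustment over 12844 genes at a threshold of 0.05. Replicates varied by 10.6% (biological coefficient of variation). DESeq2 1.42.0, other scalings, filters and thresholds, a replicate block and each library left out were alternatives. Subtraction of overlapping rows, library sizes without ribosomal RNA and offsets for gene length and GC content were added after seeing the data.

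The genes and lists were chosen with earlier results of these data known. The text names the 10 genes, in each list up to 2 called genes highest and 2 lowest in fold change with a mean of at least 50 counts, 8 regulators or partners named in advance, and the 3 genes nearest in pattern to NFE2L2, HMOX1, SLC7A11 and SOD2. A fold against a group at the floor of 3 counts per library was treated as a bound. One gene that this rule names is not reported here. Figures were drawn with matplotlib 3.10.9.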

Additional observations from a re-analysis of the deposited data

Results flagged for a closer look

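The effects of the 2 knockdowns differed for 8 of the 10 genes by a direct edgeR test of shMETTL14 against shMETTL3 cells, which is the test of the difference between their effects because both are set against the same shControl libraries. HMOX1 (1.95), SRXN1 (1.79), OSGIN1 (2.59), NQO1 (0.66) and SOD2 (0.47) were higher with shMETTL14 on the log2 scale. GCLC (-0.91), TXNRD1 (-0.89) and SLC7A11 (-0.64) were lower. NFE2L2 (0.18, adjusted p = 0.38) and GCLM (0.15, adjusted p = 0.69) did not pass the test. Over all genes, 16.5% were higher and 18.7% lower in this comparison. With offsets for gene length and GC content NQO1 (0.36, adjusted p = 0.24) and SLC7A11 (-0.19, adjusted p = 0.29) were no longer called. Groups of 2 libraries were too small to look for single libraries standing apart.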

How the results depend on the processing

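Over 60 gene and comparison pairs, 1253 values were recomputed, of which 1100 kept their direction and their side of the threshold, 153 changed and 25 of these reversed. The causes were not tested. No reversed value was called in the main test. With library size alone, in senescence GCLC was -0.27, SRXN1 -0.21 and SOD2 -0.34. With shMETTL3 against shControl NFE2L2 was 0.23, HMOX1 0.30 and SRXN1 0.082, and with shMETTL14 NFE2L2 was 0.15, NQO1 0.12 and SOD2 0.073. Between the knockdowns NFE2L2 was -0.081 and GCLM -0.12. With library sizes without ribosomal RNA rows, TXNRD1 with shMETTL3 was -0.016 and GCLM with shMETTL3 against control -0.088. With offsets for length and GC content, HMOX1 was 0.00086 and TXNRD1 -0.19 with shMETTL3 against shControl, and SRXN1 was 0.18 and SLC7A11 -0.015 against control.

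With a library left out, some values reversed. GCLM with shMETTL3 against control ranged from -0.080 (without control replicate 2) to 0.33, and was -0.060 without shMETTL3 replicate 2. Without that library SRXN1 with shMETTL3 against control was 0.088, the top of a range from -0.66, and SLC7A11 was -0.019, the bottom of a range to 0.51. OSGIN1 in senescence ranged from -1.12 to 0.087 (without shControl replicate 1), NQO1 with shMETTL14 from -0.44 to 0.027 (without shControl replicate 2), HMOX1 with shMETTL3 from -1.24 to 0.19 (without shMETTL3 replicate 1), and NFE2L2 between the knockdowns from -0.047 (without shMETTL14 replicate 1) to 0.36.

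Counts of the 10 genes moved as follows. In senescence 0 were higher with DESeq2, library size alone, an adjusted p below 0.01 or a log2 fold change of at least 1, which also left 0 lower. With shMETTL3 against shControl 1 was higher with DESeq2, the compared groups alone, library sizes without ribosomal RNA rows, an adjusted p below 0.01 or a log2 fold change of at least 1, and 0 were lower with library size alone or the fold limit. With shMETTL14 against shControl 4 were higher with library size alone, and 2 were lower with the compared groups alone or overlapping rows subtracted and 0 with the fold limit. Between the knockdowns 3 were higher with library size alone or the fold limit, which left 0 lower. Against control, 2 were higher with shMETTL3 after subtraction, 0 higher and 3 lower with the fold limit, and 1 was higher with shMETTL14 with DESeq2, an adjusted p below 0.01 or the fold limit. Leaving out a library gave 0 to 1 higher and 0 to 5 lower in senescence, 1 to 2 and 1 to 4 with shMETTL3, 2 to 3 and 1 to 2 with shMETTL14, 4 to 5 and 2 to 3 between the knockdowns, 1 to 2 and 3 to 4 with shMETTL3 against control, and 1 to 2 and 3 to 4 with shMETTL14 against control. The 0 lower in senescence came without shControl replicate 1.

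Over all genes, DESeq2 called 908 lower in senescence (1702 by edgeR), 957 higher and 728 lower with shMETTL3 (1573 and 1434), and 569 and 943 with shMETTL14 (1175 and 1545). With library size alone, 752 were higher and 5007 lower in senescence (1711 and 1702 by TMM), 5285 and 353 with shMETTL3, and 3163 and 710 with shMETTL14, so that 13.1%, 93.7% and 81.7% of calls were higher, beside 50.1%, 52.3% and 43.2%. Leaving out a library gave 1066 to 2146 higher and 763 to 2143 lower in senescence, 769 to 1929 and 723 to 2060 with shMETTL3, 486 to 1642 and 784 to 1930 with shMETTL14, and 995 to 2698 and 1409 to 2712 between the knockdowns (2118 and 2399 in all 8 libraries). A count fell by over 1.5 times without either shControl library (to 763 and 1093 lower in senescence, 888 and 769 higher with shMETTL3, 554 and 509 higher with shMETTL14), without either control library (994 and 1093 lower in senescence) and without shMETTL14 replicate 1 (486 and 995 higher, and 1738 lower against control, from 2636). Same-numbered libraries deviated together with r of -0.0605 to 0.268, over 0.1 in 2 of 6 pairs of groups. The labels do not say whether the numbers pair the samples, and this check cannot settle it. A replicate block gave 1731 higher and 1673 lower in senescence, called SLC7A11 with shMETTL14 against shControl (0.42, adjusted p = 0.036) and against control (-0.36, adjusted p = 0.031), and lost OSGIN1 with shMETTL3 against control (-1.78, adjusted p = 0.055). Depth limits OSGIN1 most, at 1 to 20 counts per library.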
